A study of Homo sapiens with 9 samples.

Results

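The response genes of BMP and TGF-beta signalling were examined in LNCaP cells, an androgen-responsive human prostate cancer line, with 10 genes listed by symbol: ID1, ID2, ID3, ID4, SMAD6, SMAD7, BAMBI, PMEPA1, SKIL and TGIF1. All 10 had a row among the 60880 gene rows, and 9 of them passed the filter on low counts, the exception being ID4. RNA was sequenced from 3 groups of 3 libraries. The control cells are labelled NT, the knockdown cells carry a knockdown of the steroid-conjugating enzyme UGT2B28, and the rescue cells overexpress UGT2B28 in that knockdown background. All were grown in medium with 10% fetal bovine serum and carry the label 24 h. The labels name puromycin (3 µg/mL) for knockdown, G418 (1 mg/mL) for rescue and no agent for control. A single knockdown line, KD4, underlies both derived groups, and nothing in the labels says whether the 3 libraries of a group came from separate cultures, so the p-values reflect the scatter among these libraries alone, and that scatter may be technical.

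As background, ligands of the TGF-beta superfamily bind pairs of serine/threonine kinase receptors, which phosphorylate SMAD proteins that enter the nucleus with SMAD4. The BMP branch works mainly through SMAD1, SMAD5 and SMAD9, and the TGF-beta and activin branch through SMAD2 and SMAD3. ID genes are classical direct targets of the BMP branch: their proteins have a helix-loop-helix without a DNA-binding region and hold E proteins such as TCF3 away from DNA. The other members restrain the pathway at different levels, and several are also targets of it. SMAD6 and SMAD7 are inhibitory SMADs, BAMBI is a receptor-like protein without a kinase, PMEPA1 is a membrane protein that binds receptor-activated SMADs and is also known as an androgen-induced gene in prostate cells, and SKIL (SnoN) and TGIF1 are nuclear corepressors of SMADs.

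To show what lies upstream of members with different behaviour, 5 promoter stretches are given from RefSeq (build GRCh38.p14, which is not the hg19 build of the counts, so these coordinates place only the printed sequence). They run 5′ to 3′ on the gene's strand and begin 250 bases before the annotated start. Capitals mark every match, on either strand, to GTCTAGAC (the palindromic SMAD-binding element), GGCGCC (the GC-rich SMAD motif of BMP-responsive genes), CAGACA (a TGF-beta-type SMAD motif), the CCAAT box or the TATAAA box. ID1 represents the ID genes that were lower in knockdown, ID4 the relative with almost no reads, SMAD6 a member without a call, BAMBI a member that rose and then fell, and TGIF1 a member that was lower in both steps. The BAMBI stretch is cut to 80 bases and the TGIF1 stretch is 1 of several annotated starts. In the GENCODE v29 annotation, exons of any gene cover 6 bases of the ID1, 8 of the SMAD6 and 9 of the BAMBI stretch. They cover 0 bases of the ID4 and TGIF1 stretches.
ID1, chr20:31605039-31605288 (plus strand): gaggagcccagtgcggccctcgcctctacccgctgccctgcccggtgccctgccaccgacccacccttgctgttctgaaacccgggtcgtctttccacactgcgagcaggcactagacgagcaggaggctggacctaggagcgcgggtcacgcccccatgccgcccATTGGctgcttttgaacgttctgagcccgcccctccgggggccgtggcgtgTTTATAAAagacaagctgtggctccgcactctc
ID4, chr6:19837120-19837369 (plus strand): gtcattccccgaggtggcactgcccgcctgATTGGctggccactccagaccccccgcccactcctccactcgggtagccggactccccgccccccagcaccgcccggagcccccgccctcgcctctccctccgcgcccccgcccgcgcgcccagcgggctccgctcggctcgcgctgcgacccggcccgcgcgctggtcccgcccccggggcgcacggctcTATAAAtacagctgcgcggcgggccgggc
SMAD6, chr15:66701986-66702235 (plus strand): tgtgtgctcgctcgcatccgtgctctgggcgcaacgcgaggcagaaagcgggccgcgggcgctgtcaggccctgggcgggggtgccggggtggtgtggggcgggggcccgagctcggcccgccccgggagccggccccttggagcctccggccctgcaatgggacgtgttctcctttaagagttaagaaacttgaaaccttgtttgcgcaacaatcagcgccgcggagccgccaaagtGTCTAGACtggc
BAMBI, chr10:28677271-28677350 (plus strand): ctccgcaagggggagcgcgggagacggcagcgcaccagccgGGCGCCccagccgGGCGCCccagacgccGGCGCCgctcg
TGIF1, chr18:3448181-3448430 (plus strand): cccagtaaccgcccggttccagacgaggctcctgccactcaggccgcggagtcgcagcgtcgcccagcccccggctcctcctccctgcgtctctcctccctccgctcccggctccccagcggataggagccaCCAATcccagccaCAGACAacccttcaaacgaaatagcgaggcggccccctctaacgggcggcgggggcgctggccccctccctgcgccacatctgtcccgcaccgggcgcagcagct
In the SMAD6 stretch GTCTAGAC begins at position -12 from the start, and it was found in 0.182% of all 35116 RefSeq windows of 250 bases. The BAMBI stretch holds GGCGCC at positions -209, -196 and -181; that motif was found in 16.4% of windows. Over all annotated windows of the 10 members, 21 in number, GTCTAGAC was found for 1 member, GGCGCC for 3 (BAMBI, PMEPA1 and SKIL), CAGACA for 2 (PMEPA1 and TGIF1), CCAAT for 6 and TATAAA for 4 (ID1, ID4, SMAD7 and TGIF1). The share of all windows was 13.6% for CAGACA, 32.0% for CCAAT and 10.7% for TATAAA. These shares are per window, whereas a member was counted if any of its windows held the motif. Counts of members and shares of windows are therefore in unlike units, and whether a motif is more frequent among the members was not tested. The ID1 stretch holds overlapping TATAAA matches on opposite strands, at positions -33 and -31. A match is a string of letters, and whether any factor bound there was not measured. Sequence outside these windows was not searched, so a motif not found here may lie elsewhere near the gene.

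The libraries held 20300744 to 26459528 gene counts. UGT2B28 had 25, 4 and 10 counts in control, 17, 8 and 1 in knockdown and 1124, 1554 and 1857 in rescue. A lower level in knockdown was not detectable at this depth (edgeR adjusted p = 0.518), and the groups are named by their labels. Rescue was above control (log2 fold change 6.81, edgeR adjusted p = 2.58e-09), so the rescue group does not stand for a return of UGT2B28 to its control level. Summed over 7 luminal prostate markers, the level was 3398 to 3667 CPM (counts scaled to library size) in control. In knockdown it was 6095 to 6533 CPM, and in rescue 6451 to 7151 CPM. Most of the difference lay in KLK3, at 1428, 3750 and 4407 CPM on average in control, knockdown and rescue. In knockdown 5 of the 7 were called higher, and KRT8 (edgeR adjusted p = 0.522) and EPCAM (adjusted p = 0.643) were not called; in rescue against control 5 were called higher and KRT8 lower (-0.21, adjusted p = 0.0257). The summed level of 3 basal markers lay between 1.54 and 2.78 CPM in control, 3.37 and 5.48 in knockdown, and 2.94 and 4.72 in rescue, and KRT14, the 1 tested, was called higher than control in both (adjusted p = 0.00165 and 0.0101). That of 4 neuroendocrine markers lay between 0.418 and 1.05 CPM in control, 0.877 and 1.196 in knockdown, and 1.35 and 1.77 in rescue, with no call for SYP, the 1 tested. Of 6 fibroblast, endothelial and immune markers, the immune markers PTPRC and CD3E had 0 counts in every group. The fibroblast markers COL1A2, DCN and LUM each had 0 counts in control, at most 2 in knockdown and at most 1 in rescue. VWF accounted for 174, 415 and 466 of the counts in control, knockdown and rescue. It was the 1 tested and was called higher than control in knockdown (1.23, edgeR adjusted p = 0.00012) and in rescue (1.40, adjusted p = 1.57e-05). In bulk RNA, fewer cells of a kind and less RNA per cell cannot be told apart, and the part of these marker shifts in the results was not tested.

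In knockdown against control, ID1, ID2 and ID3 fell together with TGIF1, while BAMBI and PMEPA1 rose. The 6 calls among 9 tested members, 4 lower and 2 higher, are to be read against 32.1% of all 18389 tested genes called (15.6% lower and 16.5% higher). The median log2 fold change was -0.005 over the 9 members and 0.01 over all tested genes. A call means a Benjamini-Hochberg adjusted p under 0.05 in edgeR's quasi-likelihood test over all tested genes, and levels are CPM scaled by TMM, a correction for library composition. In rescue against knockdown 3 of 9 members were called (background 10.1%), with PMEPA1 higher (background 5.2% higher) and BAMBI and TGIF1 lower (background 4.88% lower); the median was -0.22 over the members and -0.005 over all tested genes. Both comparisons use the same knockdown libraries. The members were chosen with earlier results of these data known, so their share of calls is a description and not a test.

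**Figure D1:**
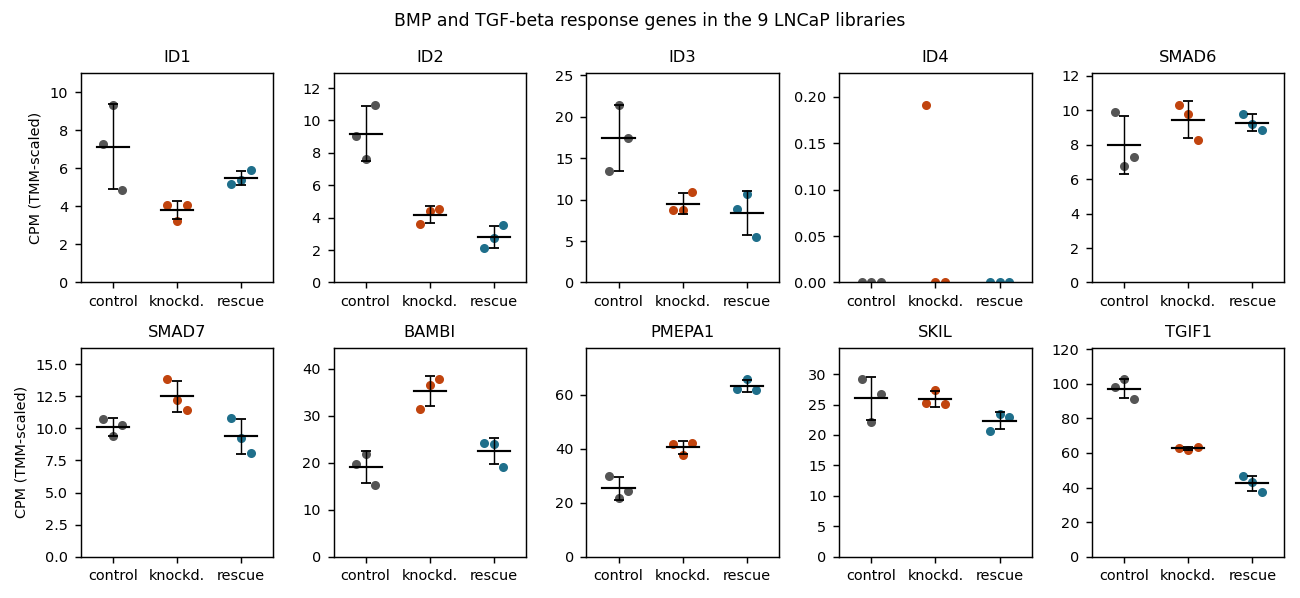
Level of each of the 10 genes in CPM (TMM-scaled, linear axis from 0) in the 3 control, 3 knockdown and 3 rescue libraries; each point is 1 library, the line is the group mean and the bar is ± 1 SD (neither for ID4, seen in 1 library only). ID2, ID3 and TGIF1 are highest in control, BAMBI is highest in knockdown and PMEPA1 steps upward from control to rescue.

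ID1 (ENSG00000125968.8_3) was at 7.26, 9.33 and 4.86 CPM in control, 4.08, 3.24 and 4.05 in knockdown and 5.20, 5.38 and 5.92 in rescue. All knockdown libraries lay below all control libraries, and the rescue libraries lay between the lowest and the middle control library. ID1 fell from 7.15 ± 2.24 to 3.79 ± 0.477 CPM (SD, n = 3), by 0.91 on the log2 scale (SE 0.22, edgeR adjusted p = 0.00197). Its rescue mean was 5.50 ± 0.376 CPM, and neither the difference from knockdown (log2 fold change 0.54, 95% interval 0.08 to 1.00, adjusted p = 0.135) nor that from control (-0.38, interval -0.82 to 0.07, adjusted p = 0.179) was called. Without control replicate 3, the lowest control, ID1 was called lower in rescue than in control (-0.59, edgeR adjusted p = 0.0375).

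ID2 (ENSG00000115738.9_2) stayed low in rescue. It was at 9.02, 7.61 and 10.9 CPM in control, 3.58, 4.42 and 4.56 in knockdown and 2.16, 2.77 and 3.52 in rescue, with no overlap between any of the 3 groups. It fell from control to knockdown by 1.14 on the log2 scale (SE 0.21, edgeR adjusted p = 0.000123), a 2.20-fold lower level. The further difference from knockdown to rescue was not called (log2 fold change -0.56, interval -1.02 to -0.09, adjusted p = 0.125). Against control, rescue was 3.24-fold lower (log2 fold change -1.69, SE 0.22, adjusted p = 4.34e-07). An antisense gene, ID2-AS1, overlaps exons of ID2 and had 6 to 33 counts against 44 to 241 for ID2. Because the strand setting of the counting is not given, how reads over the shared exons were assigned is not known.

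ID3 (ENSG00000117318.8_2) was at 13.4, 21.4 and 17.5 CPM in control, 8.77, 8.79 and 10.95 in knockdown and 8.82, 10.7 and 5.47 in rescue. Every control library lay above the 6 others, and knockdown and rescue overlapped. The fall from 17.4 ± 3.996 to 9.51 ± 1.25 CPM was 0.87 on the log2 scale (SE 0.20, edgeR adjusted p = 0.00189), and rescue was also below control (-1.06, SE 0.20, adjusted p = 0.000245). Rescue against knockdown gave -0.19 (interval -0.62 to 0.24, adjusted p = 0.66). ID4 (ENSG00000172201.11_3) had 5 counts in knockdown replicate 1 and 0 in the 8 other libraries, where a count of 0 allows up to 0.112 to 0.147 CPM by counting error alone. No comparison was made for it.

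Among the proteins that act on receptors or on SMADs near the membrane, BAMBI moved up and back. BAMBI (ENSG00000095739.10_2) was at 19.8, 21.9 and 15.3 CPM in control, 31.5, 36.5 and 37.7 in knockdown and 24.3, 24.0 and 19.2 in rescue. The knockdown libraries stood above all others, and control and rescue overlapped. It rose by 0.89 on the log2 scale (SE 0.13, edgeR adjusted p = 2.77e-06), from 19.0 ± 3.42 to 35.2 ± 3.29 CPM, and fell by 0.65 from knockdown to rescue (SE 0.13, adjusted p = 0.000748), a 1.57-fold lower level. Rescue against control gave 0.24 (interval -0.02 to 0.50, adjusted p = 0.148), which became 0.35 without control replicate 2 (adjusted p = 0.0499).

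PMEPA1 (ENSG00000124225.15_4) was higher at each step. Its libraries were at 30.0, 21.7 and 24.4 CPM in control, 41.8, 37.6 and 42.1 in knockdown and 61.9, 65.6 and 61.8 in rescue, and no library of a group reached into another group. Its level rose by 0.67 on the log2 scale from control to knockdown (SE 0.10, edgeR adjusted p = 1.13e-05) and by 0.64 from knockdown to rescue (SE 0.10, adjusted p = 6.9e-05). From 25.4 ± 4.23 CPM in control to 63.1 ± 2.16 in rescue, the fold was 2.48 (adjusted p = 3.95e-11). KLK3, which carried most of the difference in the luminal marker sum given above, was also higher in knockdown and rescue than in control, while KRT8 was lower in rescue than in control; the part of these markers in the PMEPA1 difference was not tested. The antisense gene NKILA overlaps exons of PMEPA1 and had 20 to 89 counts, against 468 to 1650 for PMEPA1. How reads over their shared exons were assigned is likewise not known.

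The inhibitory SMADs moved less. SMAD7 (ENSG00000101665.9_3) was at 10.7, 9.37 and 10.3 CPM in control, 13.8, 12.2 and 11.5 in knockdown and 10.8, 9.27 and 8.09 in rescue. The knockdown libraries did not overlap with either of the other groups, yet neither difference was called: the log2 fold change was 0.30 against control (interval -0.01 to 0.61, edgeR adjusted p = 0.133) and -0.42 in rescue against knockdown (interval -0.73 to -0.11, adjusted p = 0.0802). SMAD6 (ENSG00000137834.14_3), whose promoter stretch holds the palindrome printed above, was at 9.88, 6.77 and 7.27 CPM in control, 10.3, 9.80 and 8.28 in knockdown and 9.80, 9.19 and 8.84 in rescue, and all groups overlapped. Its interval in knockdown against control ran from -0.10 to 0.59 on the log2 scale (adjusted p = 0.299).

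The nuclear corepressors parted from each other. TGIF1 (ENSG00000177426.20_5) was at 98.0, 102 and 91.3 CPM in control, 63.0, 61.7 and 63.6 in knockdown and 46.4, 43.2 and 37.6 in rescue, with no overlap between groups. It fell by 0.63 on the log2 scale from control to knockdown (SE 0.085, edgeR adjusted p = 9.88e-07) and by 0.57 from knockdown to rescue (SE 0.087, adjusted p = 4.15e-05), so that rescue was 2.30-fold below control (adjusted p = 4.66e-12). SKIL (ENSG00000136603.13_4) was at 29.1, 22.2 and 26.8 CPM in control, 25.3, 27.5 and 25.1 in knockdown and 20.7, 23.4 and 22.9 in rescue. Its log2 fold change was -0.01 in knockdown against control (interval -0.24 to 0.22, adjusted p = 0.979) and -0.22 in rescue against control (interval -0.45 to 0.01, adjusted p = 0.127); the latter was called without control replicate 2 (-0.32, adjusted p = 0.0347).

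**Figure D2:**
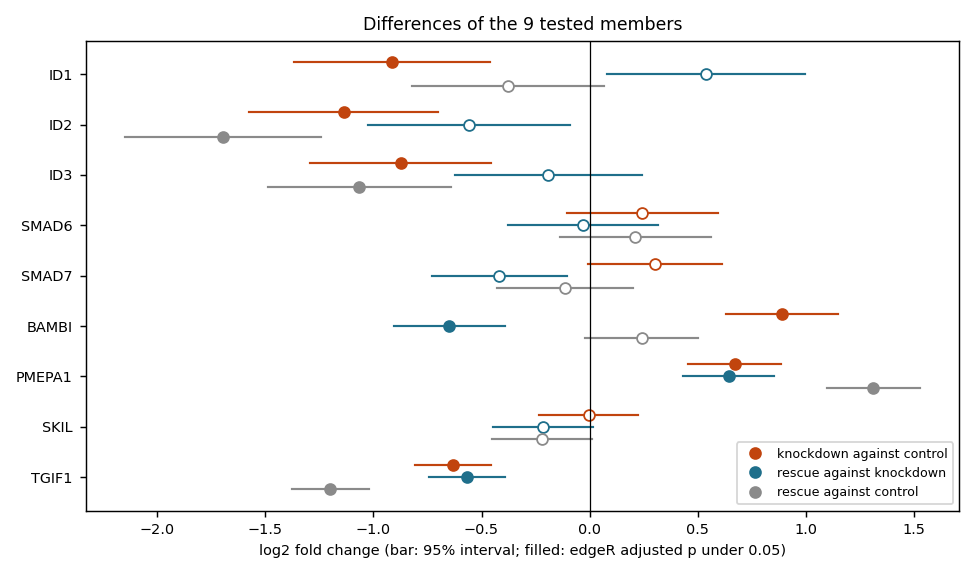
Log2 fold change of the 9 tested genes in the 3 comparisons; points are edgeR estimates, bars are 95% intervals and filled points have an adjusted p under 0.05. PMEPA1 and TGIF1 are filled in all 3 comparisons on opposite sides of 0, and BAMBI is filled in knockdown against control (0.89) and, on the other side, in rescue against knockdown (-0.65).

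Rescue against control called 4 of 9 members, PMEPA1 higher and ID2, ID3 and TGIF1 lower, beside 37.8% of all tested genes called (19% higher and 18.8% lower). The median was -0.22 over the members and -0.003 over all tested genes. The 4 differences were also called when a fold above 1.5 was required by the test. In knockdown against control that requirement left ID2 and BAMBI of the 6. In rescue against knockdown it left 0 members by edgeR's glmTreat, with 0 at an unadjusted p under 0.05, while DESeq2 and limma voom without the fold requirement each called 3.

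Per kilobase of exon (all annotated exons of GENCODE v29 merged, which understates genes with many alternative exons), the order of levels changed between groups. In control TGIF1 led at 11.8 ± 0.683 CPM per kb, followed by ID3 at 9.70 ± 2.22, BAMBI at 8.21 ± 1.48, ID1 at 5.80 ± 1.81, PMEPA1 at 4.52 ± 0.754, ID2 at 4.17 ± 0.759 and SKIL at 3.35 ± 0.454. From TGIF1 to SKIL each gene overlapped with its neighbour in this order, so neighbours could not be ranked, whereas SMAD7 at 2.01 ± 0.138 and SMAD6 at 0.931 ± 0.195 lay below SKIL without overlap. In knockdown BAMBI led at 15.2 ± 1.42 CPM per kb, apart from TGIF1 at 7.63 ± 0.117. In rescue PMEPA1 led at 11.2 ± 0.385, apart from BAMBI at 9.71 ± 1.24, and ID2 at 1.28 ± 0.310 overlapped with SMAD6 at 1.08 ± 0.057.

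The rest of the pathway was described from lists of 113 genes outside the members, of which 79 were tested. In knockdown against control 35 of them were called, 14 higher and 21 lower (44.3%, beside 32.1% of all genes), with a median log2 fold change of -0.11. In rescue against knockdown 14 were called, 7 in each direction (17.7%, beside 10.1%). LTBP2 stands in 2 of the lists and is counted once. The lists were chosen with earlier results of these data known, so these shares describe the lists and do not test the pathway.

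Ligands were mostly scarce: of 24 listed, 10 were tested and 6 had no count in any library. In knockdown 2 of 10 rose and 1 fell, with a median of -0.11. GDF15, a stress-induced and distant superfamily member, lay between 12230 and 12865 CPM in control, 17459 and 21178 in knockdown, and 15314 and 17251 in rescue. It rose in knockdown by 0.61 on the log2 scale (SE 0.090, edgeR adjusted p = 5.13e-06), and rescue was above control (0.38, adjusted p = 0.00117). BMP2, a ligand of the BMP branch, had 16, 26 and 13 counts in control, 10, 1 and 1 in knockdown and 5, 0 and 2 in rescue. Its call in knockdown (-2.26, SE 0.88, adjusted p = 0.0488) was lost in 7 of the 9 fits that left out a library, with adjusted p up to 0.206. Those 7 left out control replicate 1, 2 or 3, knockdown replicate 2 or 3, or rescue replicate 1 or 3. GDF9 was higher by 0.53 on the log2 scale in knockdown (adjusted p = 0.0152), and this was no longer called without knockdown replicate 2 (0.0683) or 3 (0.0574). TGFB1, the prototype TGF-beta ligand, was at 32.1 ± 4.65, 26.7 ± 1.06 and 23.5 ± 0.221 CPM in control, knockdown and rescue; rescue was below control (-0.45, adjusted p = 0.00143) and knockdown was not called (adjusted p = 0.0611). In rescue against knockdown 0 of 10 ligands were called by edgeR, 3 had an unadjusted p under 0.05, and DESeq2 and limma voom called 1 each.

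**Figure D3:**
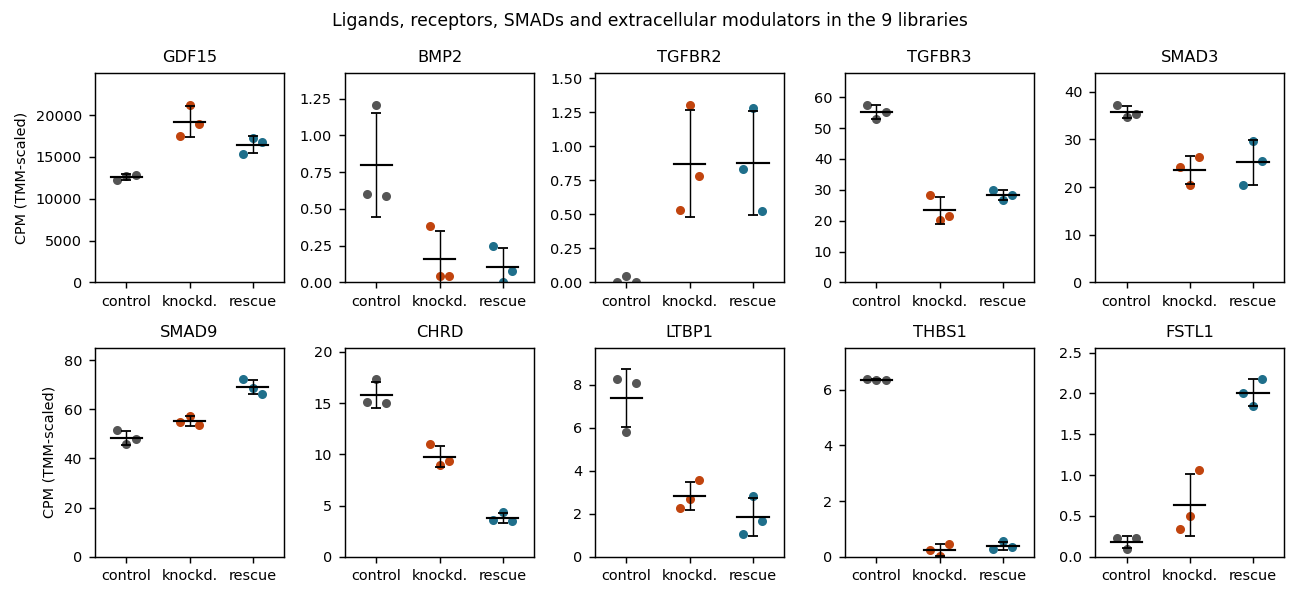
Level in CPM (TMM-scaled, linear axes from 0) of 10 ligands, receptors, SMADs and extracellular modulators in the 9 libraries; points are libraries, lines are group means and bars are ± 1 SD, with neither for TGFBR2 in control and bars ending at the axis where they would pass 0. TGFBR2 has 1 count in all control libraries together and TGFBR3, THBS1 and LTBP1 are highest in control.

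Among 15 tested receptors and co-receptors, 2 rose and 5 fell in knockdown (median -0.16). TGFBR2, the type II receptor that binds TGF-beta, had 0, 1 and 0 counts in control, 14, 31 and 17 in knockdown and 17, 32 and 14 in rescue. The ratio of pooled CPM to control was 60.8 for knockdown (95% counting interval 10.5 to 2440) and 61.5 for rescue (10.6 to 2470), and the edgeR adjusted p was 9.05e-05 and 6.55e-05. Its level in knockdown was 0.873 ± 0.393 CPM. TGFBR3 (betaglycan), the co-receptor that presents TGF-beta ligands, fell from 55.2 ± 2.17 to 23.4 ± 4.41 CPM (by 1.24 on the log2 scale, adjusted p = 5.89e-10) and was at 28.3 ± 1.64 CPM in rescue. BMPR2, the type II BMP receptor, fell by 0.29 on the log2 scale (adjusted p = 0.0109), a call lost without control replicate 1 (0.0849) or knockdown replicate 2 (0.0758). RGMB, a BMP co-receptor, fell by 0.27 (adjusted p = 0.0131), not called when knockdown replicate 2 was left out (0.0543). AMHR2, the receptor for anti-Müllerian hormone, rose from 2.35 ± 0.093 to 4.03 ± 0.339 CPM (adjusted p = 0.0111). No receptor of the 15 was called in rescue against knockdown: edgeR, DESeq2 and limma voom gave 0, and 2 had an unadjusted edgeR p under 0.05.

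Of 10 signal-carrying SMADs and adaptors, 2 fell in knockdown and 0 rose; at an unadjusted p under 0.05 there were 7, and DESeq2 and limma voom each called 2. SMAD3, a transducer of the TGF-beta branch, was at 37.2, 34.8 and 35.4 CPM in control, 24.1, 20.5 and 26.4 in knockdown and 20.4, 29.7 and 25.5 in rescue, with every control library above the others. It fell by 0.60 on the log2 scale (SE 0.12, edgeR adjusted p = 0.00031). USP9X, a deubiquitinase that acts on SMAD4 among other proteins, fell by 0.38 (adjusted p = 0.000129). SMAD9, of the BMP branch, was at 48.4 ± 2.88, 55.3 ± 1.98 and 69.0 ± 2.95 CPM in control, knockdown and rescue. It was called higher in rescue than in knockdown (0.32, adjusted p = 0.0125), which depended on knockdown replicate 3 (0.052 without it) and rescue replicate 1 (0.0758), and higher in rescue than in control (0.51, adjusted p = 1.68e-05). SMAD1, also of the BMP branch, was at 8.65 ± 0.254, 6.72 ± 1.11 and 9.61 ± 1.176 CPM and was not called in rescue against knockdown (0.51, adjusted p = 0.0527). With the replicate number as a block, the list gave 4 calls for knockdown against control (2 without the block) and 3 for rescue against knockdown (1 without it).

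Of 9 tested extracellular modulators, 3 fell and 1 rose in knockdown (median -0.05). THBS1 (thrombospondin 1), which activates latent TGF-beta, had 170, 137 and 140 counts in control, 6, 1 and 10 in knockdown and 6, 14 and 9 in rescue. This is a pooled CPM ratio of 0.0373 for knockdown over control (counting interval 0.0215 to 0.0604, edgeR adjusted p = 5.73e-10). LTBP1, which tethers latent TGF-beta in the matrix, fell from 7.37 ± 1.36 to 2.83 ± 0.658 CPM (log2 fold change -1.39, adjusted p = 0.000201). CHRD (chordin), which binds BMP ligands outside the cell, was at 15.1, 17.3 and 14.99 CPM in control, 10.98, 9.002 and 9.34 in knockdown and 3.58, 4.33 and 3.48 in rescue, with no overlap between groups. It fell at both steps, by 0.69 (SE 0.15, adjusted p = 0.000827) and by 1.36 on the log2 scale (SE 0.17, adjusted p = 1.58e-06). FSTL1, a secreted follistatin-like protein, had 6, 2 and 5 counts in control, 9, 12 and 23 in knockdown and 41, 46 and 58 in rescue, and rescue was above control (3.41, SE 0.58, adjusted p = 2.68e-05). Its calls in the steps between were lost without control replicate 2 (0.0915) or knockdown replicate 3 (0.19) for knockdown against control, and without knockdown replicate 1 or 2 or any rescue replicate for rescue against knockdown (adjusted p up to 0.127). LTBP3 was higher in rescue than in knockdown (0.25, adjusted p = 0.0237), not called when leaving out knockdown replicate 1 (0.103), rescue replicate 2 (0.0862) or rescue replicate 3 (0.0869).

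Of 9 intracellular inhibitors other than the members, 2 rose and 2 fell in knockdown (median 0.07). NEDD4L, a ubiquitin ligase that limits activated SMADs, rose from 81.4 ± 6.66 to 132 ± 5.74 CPM (by 0.70 on the log2 scale, edgeR adjusted p = 2.34e-08) and STRAP, a receptor-binding partner of SMAD7, by 0.37 on the log2 scale (adjusted p = 0.00124). SKI, the corepressor related to SKIL, fell by 0.39 (adjusted p = 0.00125) and PIAS4, a SUMO ligase, by 0.44 (adjusted p = 0.00214). In rescue against knockdown 1 of the 9 rose, the phosphatase PPM1A (0.24, adjusted p = 0.029), not called when leaving out knockdown replicate 1 (0.0602) or 3 (0.118) or rescue replicate 2 (0.169) or 3 (0.0582). The E proteins, which ID proteins bind, were measured too. TCF3 fell from 172 ± 10.9 to 115 ± 5.38 CPM (-0.58, SE 0.074, adjusted p = 3.64e-07) and was at 114 ± 6.84 CPM in rescue, while TCF12 (interval -0.21 to 0.20) and TCF4 (interval -0.87 to 1.58) were not called.

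Other genes known as TGF-beta or BMP targets went both ways: of 24 tested, 7 rose and 7 fell in knockdown (median -0.09), and 3 rose and 6 fell in rescue against knockdown. FN1 (fibronectin) fell at both steps, by 2.32 and by 0.89 on the log2 scale (edgeR adjusted p = 1.95e-15 and 5.22e-07). KLF10, an early TGF-beta-induced zinc finger gene, rose from 45.5 ± 1.78 to 97.1 ± 3.95 CPM and was at 65.7 ± 1.33 CPM in rescue, lower than in knockdown (-0.56, adjusted p = 1.04e-05) and higher than in control (0.53, adjusted p = 4.28e-06). JUNB, an AP-1 subunit, went from 114 ± 13.3 to 206 ± 38.6 and back to 117 ± 9.09 CPM, with calls at both steps (0.85 and -0.81, adjusted p = 6.51e-05 and 0.000454). GADD45B rose by 1.07, BHLHE40 rose by 0.76 and SPHK1 fell by 1.40 on the log2 scale in knockdown. In rescue against knockdown BHLHE40 was lower (-0.33, edgeR adjusted p = 0.00394), and GADD45B and SPHK1 were not called (adjusted p = 0.276 and 0.858). CDKN1A (p21), a cell cycle inhibitor, rose at both steps, by 0.35 and 0.50, and NEDD9, a Cas-family scaffold, fell by 0.62 from knockdown to rescue (adjusted p = 0.00114).

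**Figure D4:**
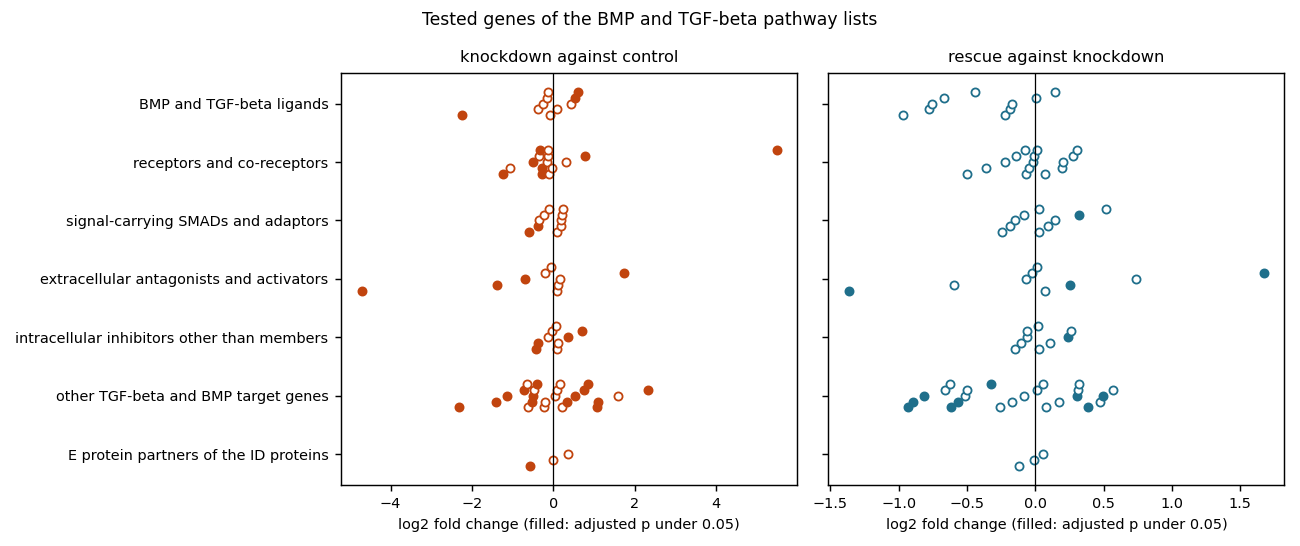
Log2 fold change of each tested gene of the 7 pathway lists in knockdown against control (left) and rescue against knockdown (right; the axes differ in range); filled points have an edgeR adjusted p under 0.05 and vertical spread within a list only separates points. Filled points lie on both sides of 0 among the target genes, and no ligand or receptor is filled on the right.

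The tested genes whose log2 CPM followed that of ID1 most closely over the 9 libraries, which fall in 3 groups, were NAIPP2 (Pearson r 0.96), COL20A1 (0.96) and TRMT10B (0.956). For PMEPA1 they were DLX1 (0.994), CASZ1 (0.991) and GTF2H2C (0.988), with CASZ1 at 75.7, 96.5 and 134 CPM on average in control, knockdown and rescue. The correlations share libraries and group differences and describe likeness only. Of these genes, DLX1 averaged 0.09, 0.579 and 2.56 CPM in control, knockdown and rescue. In the same order COL20A1 averaged 1.11, 0.209 and 0.594 CPM and NAIPP2 1.37, 0.64 and 1.02 CPM, so these profiles rest on few counts. TRMT10B (16.7, 13.0 and 14.3 CPM) and GTF2H2C (32.5, 39.7 and 47.6 CPM) stood higher.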

How the data were processed

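RNA of 9 LNCaP libraries was measured as raw counts of reads per gene, deposited by the authors as 1 table per library. Tools named per the submitters' processing notes are FastQC, cutadapt, HISAT2 and HTSeq, and the build is hg19; versions and strand setting: not given in the sources used here. Rows without a gene entered neither library sizes nor tests (outside genes 48.8% to 50.7% of reads, ambiguous 2.26% to 2.67%, not unique 5.26% to 7.62%). Of 60880 gene rows, 40573 matched a symbol by gene ID without version.

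The analysis used edgeR 4.0.16 (R 4.3.3): filterByExpr (minimum count 10; 18389 genes kept), TMM, a robust quasi-likelihood fit to all 9 libraries with 1 mean per group, glmQLFTest per comparison and Benjamini-Hochberg adjustment over all tested genes, with a threshold of 0.05. SEs were worked back from the fold change and the F statistic, and 95% intervals use them. The code was tested on simulated counts. DESeq2 1.42.0, limma 3.58.1 and other settings were alternatives. Intervals on counts and floors of 3 counts cover counting error only.

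The members and lists were chosen with earlier results of these data known. Genes named are all members, up to 5 genes per list and comparison with the smallest adjusted p, and the 3 genes most alike in profile to ID1 and to PMEPA1. Of the non-epithelial markers, PECAM1 matched no row. Promoter stretches come from RefSeq (GRCh38.p14), with all 10 members matched by symbol.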

Additional observations from a re-analysis of the deposited data

How the results depend on the processing

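The 6, 3 and 4 members called in knockdown against control, rescue against knockdown and rescue against control were called in the same direction with DESeq2, limma voom, RLE size factors, no composition scaling, no filter, a minimum count of 50 and only the compared groups in the fit. They were also called in each of the 9 fits that left out 1 library, where the counts of members were 6 to 6, 3 to 3 and 4 to 6. Requiring a fold above 1.5 left 2 and 0 members in the first and second comparison, and 1141, 113 and 1482 of all genes in the 3 comparisons, since that test asks for a larger difference. Leaving out 1 library gave 1196 to 2364 calls over all genes in rescue against knockdown, in place of 1854, the lowest without rescue replicate 1; the cause was not tested. Of the values of single members with 1 library left out, 240 kept their side of the threshold and 3 gained a call. With the replicate number of the titles as a block, 6, 3 and 4 members and 6348, 2319 and 7363 of all genes were called. Over all genes, libraries with the same number did not deviate together (r -0.037 to 0.077 over 9 pairs, with the same number best in 5 of 18 matches). A correlation over all genes cannot exclude a shared step that touched few genes. The labels do not say how the numbers were given, and whether they mark a pairing was not settled. No scaling moved the median of all genes by over 0.1 on the log2 scale. Levels under about 1 CPM, as for BMP2, TGFBR2, ID4 and, in control, DLX1, rest on few counts.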
